A study of Homo sapiens with 4 samples.

Results

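SPN, DPEP1, RASGRP4 and C10orf105 are 4 genes, of 15942 in the deposited table, whose transcripts were far less abundant in H9 human embryonic stem cells treated with a small interfering RNA (siRNA) against UPF1. They were taken by gene symbol, as genes without a neural role that had been selected on the size of their drop in CPM (read counts scaled to library size with TMM factors) in the siUPF1 libraries relative to the siLuc libraries. Those CPM values chose the genes, so the drop is described here and not tested. H9 is an established human embryonic stem cell line, grown here on Matrigel in DMEM/F12 with E8 supplement. The siUPF1 libraries, replicates 1 and 2, came from cells given an siRNA against UPF1. The 2 control libraries came from cells given an siRNA against luciferase (siLuc), an insect enzyme with no target in human cells, and are called siLuc a and siLuc b because their columns share a name. The treatment note common to all libraries speaks of UPF3A siRNA and of an actinomycin D series, and which time point a library stands for is not given. The siRNA sequences are not given in the sources used here either. Nothing states that libraries of a group were grown separately, so every p-value reflects library-to-library spread, which may be technical. In bulk RNA, fewer cells of a type and less RNA per cell cannot be told apart.

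UPF1 is an RNA helicase and the central factor of nonsense-mediated RNA decay (NMD), a pathway that removes transcripts with a premature or otherwise misplaced stop codon. A transcript that NMD degrades becomes more abundant when UPF1 is depleted. The 4 genes moved the other way. SPN encodes sialophorin (CD43), a mucin-like protein of the leukocyte surface that carries many sialylated O-linked sugars. DPEP1 encodes a zinc dipeptidase anchored to the outer membrane of kidney proximal tubule cells, which cleaves cysteinylglycine and converts leukotriene D4 to leukotriene E4. RASGRP4 encodes an exchange factor that loads Ras proteins with GTP, responds to diacylglycerol and is known from mast cells and other myeloid cells. C10orf105 encodes a small predicted membrane protein whose role is not settled.

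The RefSeq promoter set used here holds 3 of the 4 genes (GRCh38.p14), and SPN, which it lacks, is named only. The 250 bases before each start that lies within 50 nt of a transcript start of the deposited table are shown. These genes were chosen for their drop, so that they dropped together is not a finding. Capitals mark the 5-letter word GGAAG on either strand (CTTCC on the printed one), which holds the core that ETS factors recognise, a family with several blood cell regulators, and which is counted at each place where it occurs.
DPEP1, chr16:89620347-89620596, plus strand: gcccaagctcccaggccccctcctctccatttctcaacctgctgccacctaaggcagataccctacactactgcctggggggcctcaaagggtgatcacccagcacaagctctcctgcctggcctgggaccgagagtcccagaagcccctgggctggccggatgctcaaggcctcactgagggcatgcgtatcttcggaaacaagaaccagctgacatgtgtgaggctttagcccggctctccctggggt
RASGRP4, chr19:38426220-38426469, minus strand: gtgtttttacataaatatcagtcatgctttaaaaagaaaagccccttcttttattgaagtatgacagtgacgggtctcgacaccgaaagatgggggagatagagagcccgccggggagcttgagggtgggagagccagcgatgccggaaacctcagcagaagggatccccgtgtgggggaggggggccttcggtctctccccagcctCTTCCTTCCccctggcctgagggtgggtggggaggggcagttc
C10orf105, distal start, chr10:71737851-71738100, minus strand: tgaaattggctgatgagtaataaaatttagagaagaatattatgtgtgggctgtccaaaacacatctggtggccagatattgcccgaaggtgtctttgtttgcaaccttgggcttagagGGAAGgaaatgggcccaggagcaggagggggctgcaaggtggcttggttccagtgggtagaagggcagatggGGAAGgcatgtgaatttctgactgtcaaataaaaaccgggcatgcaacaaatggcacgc
C10orf105, proximal start, chr10:71719779-71720028, minus strand: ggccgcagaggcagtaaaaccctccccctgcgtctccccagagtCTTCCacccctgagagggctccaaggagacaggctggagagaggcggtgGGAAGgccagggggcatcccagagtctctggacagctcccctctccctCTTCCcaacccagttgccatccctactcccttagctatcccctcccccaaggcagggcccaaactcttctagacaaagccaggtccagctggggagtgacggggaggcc
The word occurred 0 times before the DPEP1 start, 2 times before the RASGRP4 start, and 2 and 3 times before the distal and proximal C10orf105 starts. Of 35116 listed promoters of the same length, 65.1% held it at least once and 11.9% at least 3 times. The 3 further DPEP1 starts in RefSeq, with no transcript start of the table nearby, held it 12, 0 and 2 times. GC content was 61.6% before the DPEP1 start, 57.2% before the RASGRP4 start, and 48.4% and 64.0% before the C10orf105 starts, against a median of 58.0%. The words CCAAT and TATAAA were counted too. Before the starts shown, CCAAT occurred 1 time, at the distal C10orf105 start, and TATAAA 0 times. Of the listed promoters, 32.0% held CCAAT and 10.7% TATAAA at least once. A match is a description of letters and does not show binding.

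SPN showed the largest drop of the 4. It had 28 reads in siUPF1 replicate 1 and 28 in siUPF1 replicate 2, against 119 in siLuc a and 124 in siLuc b. Scaled to library size, these were 2.80 and 2.49 CPM in the siUPF1 libraries, against 13.5 and 12.4 CPM in the siLuc libraries. Both siUPF1 libraries lay far below both siLuc libraries, and libraries within a group were close. Mean SPN levels were 2.65 ± 0.217 CPM after UPF1 siRNA and 12.9 ± 0.773 CPM after siLuc (SD, n = 2 each), a log2 fold change of -2.28 (SE 0.22). By summed reads, 20.4% of the siLuc level remained (exact binomial 95% interval 15.0% to 27.4%, counting error only).

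DPEP1 had the most reads of the 4 in every library. It had 43 reads in siUPF1 replicate 1 and 54 in siUPF1 replicate 2, against 138 in siLuc a and 167 in siLuc b. The groups did not overlap, at 4.30 and 4.81 CPM in the siUPF1 libraries and 15.6 and 16.7 CPM in the siLuc libraries. Mean DPEP1 levels were 4.56 ± 0.360 CPM after UPF1 siRNA and 16.1 ± 0.741 CPM after siLuc (SD, n = 2 each), a log2 fold change of -1.82 (SE 0.19). The summed reads left 28.2% of the siLuc level (exact binomial 95% interval 22.2% to 35.5%).

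RASGRP4 had 27 reads in siUPF1 replicate 1 and 44 in siUPF1 replicate 2, against 72 in siLuc a and 99 in siLuc b. At 2.70 and 3.92 CPM in the siUPF1 libraries and 8.15 and 9.88 CPM in the siLuc libraries, the groups were apart, but replicates varied more than for SPN or DPEP1. Means were 3.31 ± 0.862 CPM after UPF1 siRNA and 9.01 ± 1.22 CPM after siLuc (SD, n = 2 each). Its log2 fold change was -1.43 (SE 0.23), and it ran from -1.21 without siUPF1 replicate 1 to -1.74 without siUPF1 replicate 2. By summed reads, 36.8% of the siLuc level remained (exact binomial 95% interval 27.5% to 48.8%).

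C10orf105 had 26 reads in siUPF1 replicate 1 and 35 in siUPF1 replicate 2, against 64 in siLuc a and 91 in siLuc b. Its levels were 2.60 and 3.12 CPM in the siUPF1 libraries and 7.24 and 9.08 CPM in the siLuc libraries, again without overlap. Means were 2.86 ± 0.365 CPM after UPF1 siRNA and 8.16 ± 1.30 CPM after siLuc (SD, n = 2 each). The log2 fold change was -1.51 (SE 0.24), and 34.8% of the siLuc level remained by summed reads (exact binomial 95% interval 25.5% to 47.2%). These intervals overlapped that of RASGRP4 almost wholly, so the order of these last genes is not resolved at this depth.

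**Figure D1:**
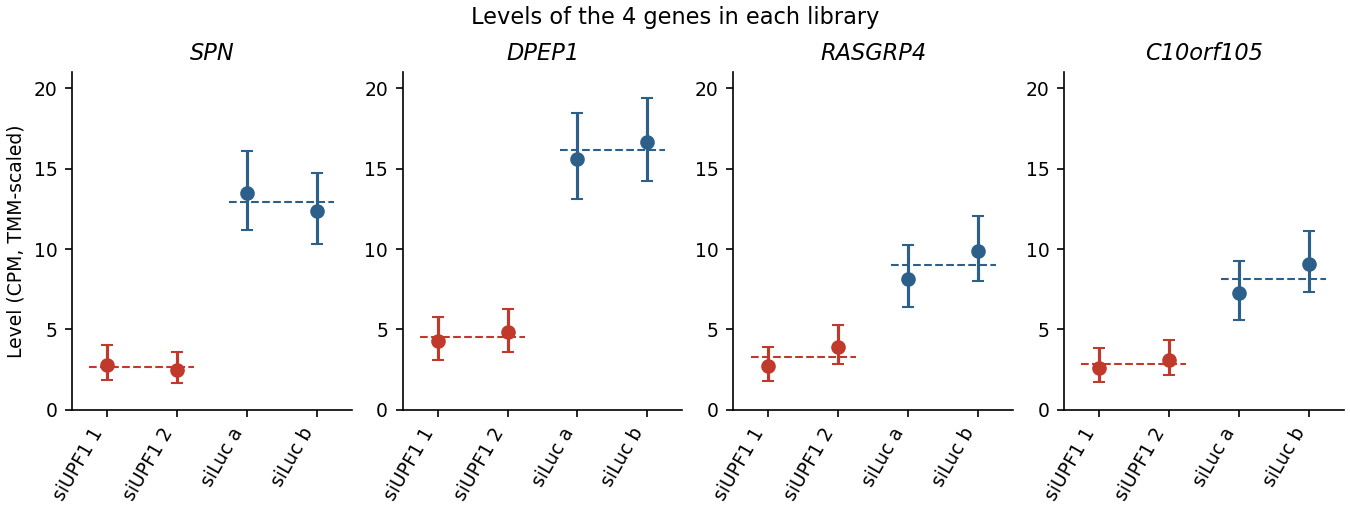
Level in CPM of each of the 4 genes in the siUPF1 libraries (red) and the siLuc libraries (blue); points are libraries, bars are exact 95% Poisson intervals of the counts and dashed lines are group means. SPN sits at 2.49 to 2.80 CPM in siUPF1 libraries and at 12.4 to 13.5 CPM in siLuc libraries, and no siUPF1 point of any of the 4 genes reaches a siLuc point.

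Both siUPF1 libraries lay below both siLuc libraries for all 4 genes, as they did for 31.1% of all 15557 genes that passed the low-count filter, while for 32.3% both lay above. The 4 genes were picked for this contrast, so nothing is read from their count. All 4 passed that filter. The siRNA target, UPF1, had 608 and 878 reads in siUPF1 replicates 1 and 2, against 1936 and 2053 in siLuc a and siLuc b, and was higher in siUPF1 replicate 2 than in replicate 1 by a ratio of 1.30 (95% interval 1.17 to 1.44). The same ratio was 1.46 for RASGRP4 (0.886 to 2.46), 1.21 for C10orf105 (0.707 to 2.09), 1.13 for DPEP1 (0.742 to 1.72) and 0.898 for SPN (0.513 to 1.57). Each of these 4 intervals includes 1, so a difference between the siUPF1 libraries was not detectable for any of the 4 genes. Between the siLuc libraries, the ratio of b to a ran from 0.932 for SPN to 1.27 for C10orf105, and again each interval included 1.

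The 4 genes are expressed at low levels in these cells. Divided by transcript length, SPN stood at 0.390 CPM per kilobase after UPF1 siRNA and 1.90 after siLuc, and C10orf105 at 0.625 after UPF1 siRNA and 1.78 after siLuc. RASGRP4 stood at 1.05 CPM per kilobase after UPF1 siRNA and 2.86 after siLuc, and DPEP1 at 2.94 after UPF1 siRNA and 10.4 after siLuc. On this scale DPEP1 exceeded the other 3 in both groups. By mean level per kilobase, 4.03% of tested genes lay below SPN, 4.49% below C10orf105, 9.45% below RASGRP4 and 26.4% below DPEP1.

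Among 1120 tested genes with a mean between 5.51 and 10.3 CPM, the range that the 4 genes span, the median log2 fold change was 0.05 and the middle of the distribution ran from -0.21 to 0.36 (quartiles). In that range 5 genes had a drop at least as large as RASGRP4's, the 4 genes and SCN1A, a sodium channel gene of neurons (-1.73). The range and the cut-off come from the 4 genes, which were chosen for their drop, so their places are a description. Of 13634 genes that averaged at least 5 CPM, SPN had the largest drop and DPEP1 the next, while C10orf105 was in place 9 and RASGRP4 in place 10. HRC, which encodes a calcium-binding protein of muscle, followed in place 11 at -1.43, equal to RASGRP4 to 2 decimals. The edge of the choice therefore marks no gap in the values. With lower-expressed genes included, SPN was in place 6, DPEP1 in place 15, C10orf105 in place 38 and RASGRP4 in place 45.

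**Figure D2:**
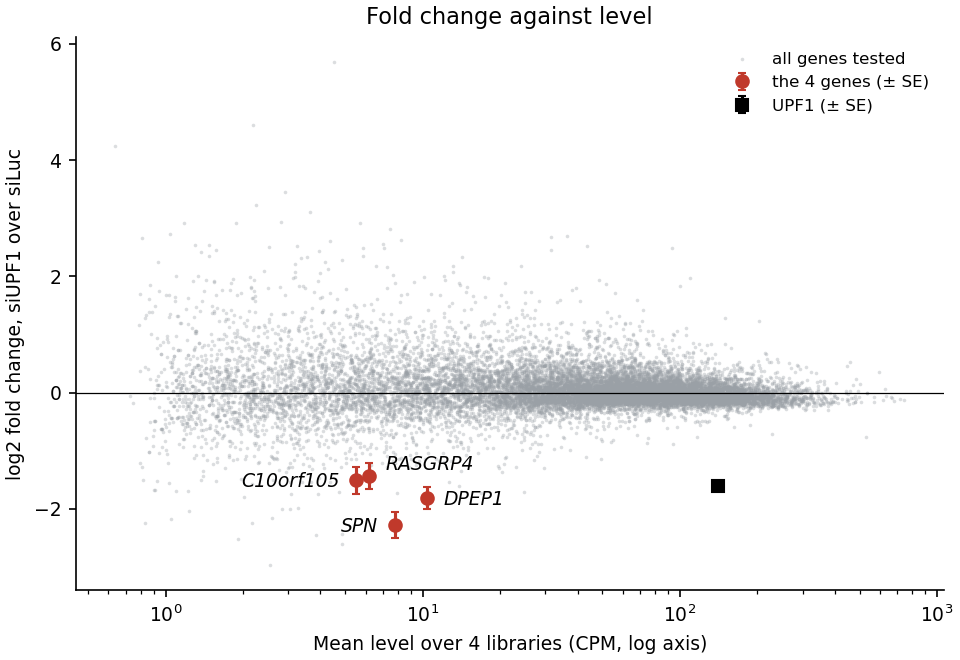
Log2 fold change of siUPF1 over siLuc against mean level in CPM (log axis) for all genes tested (grey), the 4 genes (red, ± SE) and UPF1 (black, ± SE). The 4 genes lie at means of 5.51 to 10.3 CPM and at -1.43 to -2.28, below nearly all genes of their level. They were chosen for their drop, so this place is not a finding.

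Their transcripts fall into a pair of shapes. In GENCODE 29 the longest coding transcript of SPN had 2 exons, its whole coding sequence in 1 of them, and a 3' UTR of 5559 nt, longer than in 94.5% of 13476 tested coding genes. That of C10orf105 was alike, with 2 exons, 1 coding exon, only 399 nt of coding sequence and a 3' UTR of 4234 nt, longer than in 89.5%. DPEP1 had 11 exons and a 3' UTR of 207 nt, and RASGRP4 had 17 exons and a 3' UTR of 981 nt, against a median of 1175 nt. A long 3' UTR and an exon junction well past the stop codon are textbook features of NMD substrates. None of these 4 transcripts had a junction after its stop codon, and 0.393% of coding genes had one more than 55 nt after it. Only transcripts of GENCODE's protein-coding class were matched, and its NMD class is kept apart. These values therefore do not show that a gene lacks transcripts with such a junction. An upstream AUG was present 1 time in DPEP1 and not in the other 3, and 54.6% of coding genes had at least 1. GENCODE annotated 1 NMD-class transcript for SPN, 2 for RASGRP4 and none for DPEP1 or C10orf105, and 41.0% of coding genes had at least 1. The counts are per gene, so which transcript they came from was not measured.

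**Figure D3:**
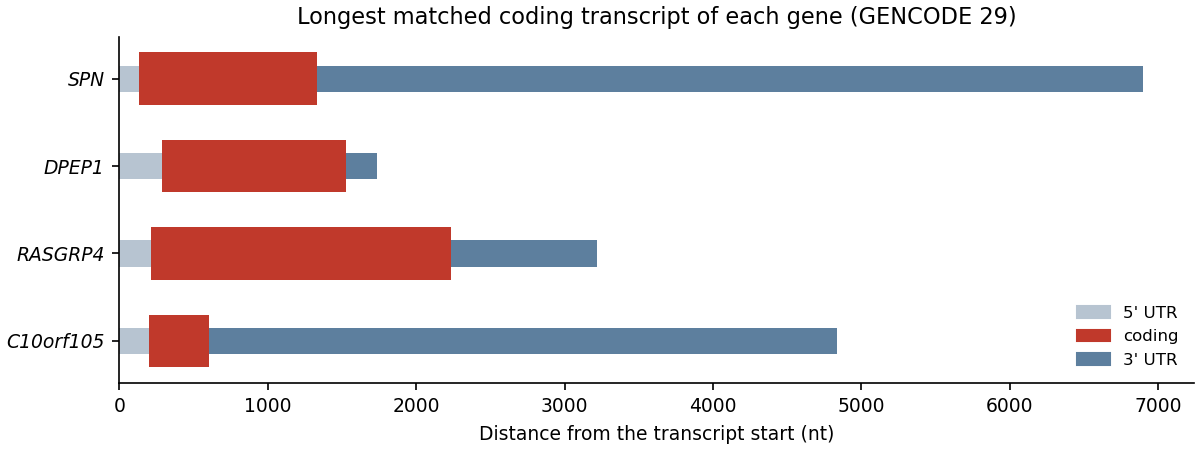
Longest matched coding transcript of each of the 4 genes, drawn to scale in nt from the transcript start, with the coding part thick. SPN and C10orf105 carry 3' UTRs of 5559 and 4234 nt, against 981 nt in RASGRP4 and 207 nt in DPEP1.

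Neighbouring genes were examined because reads of overlapping genes can be shared where strand is not used. The RefSeq gene table places SPN and DPEP1 on chromosome 16, RASGRP4 on chromosome 19 and C10orf105 on chromosome 10. The overlapping genes and the 3 nearest of the table on each side came to 26, of which BOLA2 was left out of the counts because the table merges it with near-identical and neighbouring genes. Of the other 25, 6 rose and 0 fell by edgeR's quasi-likelihood test with p-values adjusted after Benjamini and Hochberg (threshold 0.05), against 16.8% rising and 9.14% falling among all tested genes. Over all genes 2613 rose and 1422 fell, and with the read density trend removed 2184 rose and 2129 fell. At an unadjusted p under 0.05 there were 7 up and 3 down, DESeq2 called 4 and 0, and limma-voom 5 and 0. Their median log2 fold change was -0.05, against -0.01 over all genes tested. Without siUPF1 replicate 1, 10 of the 25 passed in either direction, against 6 with all libraries.

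RASGRP4 and FAM98C, a gene on the opposite strand, share 30 bases, or 0.931% of the RASGRP4 exon bases in the table's transcripts. FAM98C had 129 and 165 reads in siUPF1 replicates 1 and 2, against 65 and 69 in siLuc a and siLuc b. Its reads thus stood higher in both siUPF1 libraries, the opposite of RASGRP4. By edgeR it rose, with a log2 fold change of 0.96 (SE 0.18) and an adjusted p of 1.73e-06. On the other flank of RASGRP4, RYR1, the calcium release channel of muscle, stood at -0.16 (SE 0.07) and did not pass, but without siUPF1 replicate 2 it stood at -0.41 with an adjusted p of 1.53e-06 (edgeR), and without siUPF1 replicate 1 at 0.04 with an adjusted p of 0.687, so its direction turned with the library left out. SPRED3, an inhibitor of Ras signalling, stood at 0.23 (SE 0.13) and did not pass, but passed without siUPF1 replicate 1 (0.35, adjusted p = 0.0358, edgeR).

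C10orf105 lies within the locus of CDH23, on the opposite strand. CDH23 encodes cadherin 23, a part of the tip links of hair cell stereocilia. Over all GENCODE transcripts the genes share 3505 exon bases, or 71.1% of those of C10orf105, but over the transcripts named in the table only 149, or 3.02%. CDH23 had 127 and 187 reads in siUPF1 replicates 1 and 2, against 152 and 143 in siLuc a and siLuc b, so its groups overlapped. It stood at -0.09 (SE 0.15) and did not pass (edgeR adjusted p = 0.709; 0.201 to 0.932 over 11 alternatives), and its sign turned without siLuc a (0.05) and without siUPF1 replicate 1 (0.09). Whether the authors' counting used strand is not given, so reads of these genes may be mixed. The nearest genes outside, SLC29A3 at -0.09 (SE 0.10) and PSAP, the saposin precursor, at -0.11 (SE 0.07), did not pass either.

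Next to SPN, QPRT, an enzyme of NAD synthesis, stood at -0.05 (SE 0.08) and did not pass. On the other side the pseudogene SLC7A5P1 rose by 0.40 (SE 0.16, edgeR adjusted p = 0.0472), a call that 8 of 11 alternatives ended and whose reads may come from near-identical copies. The weakest of these was without siLuc b (0.26, edgeR adjusted p = 0.473). Beside DPEP1, CPNE7 stood at -0.05 (SE 0.17) and CHMP1A, a subunit of the membrane-scission complex ESCRT-III, at -0.01 (SE 0.07), and neither passed.

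**Figure D4:**
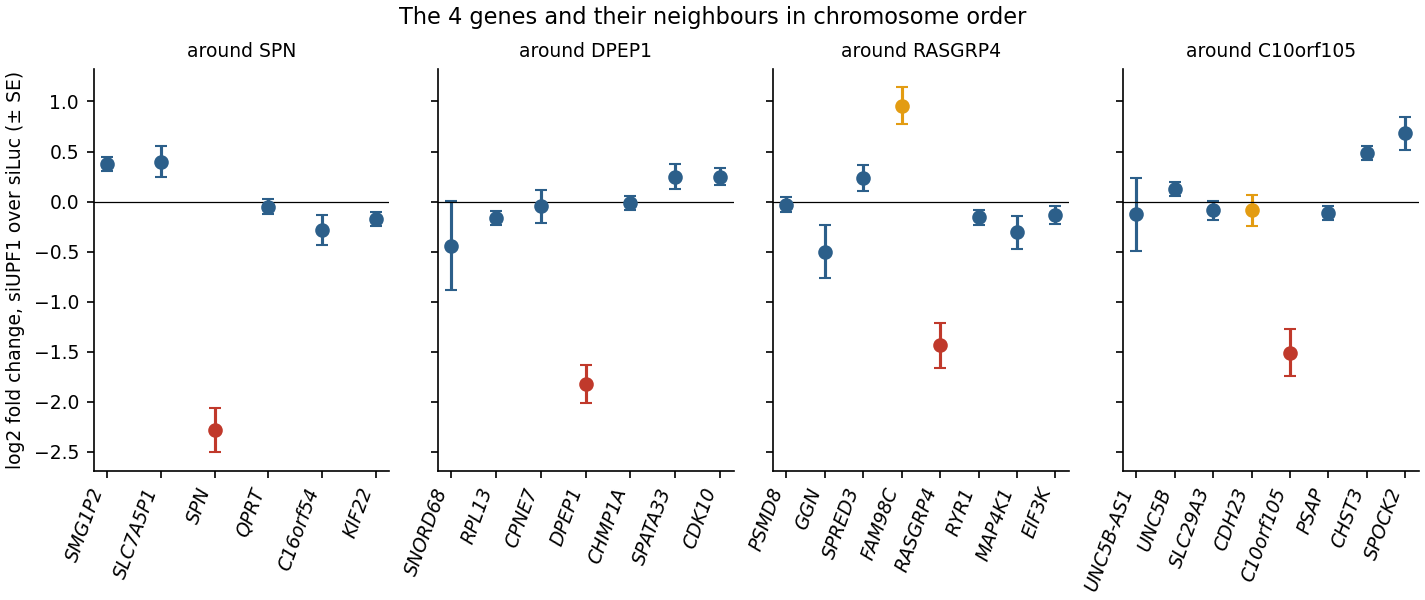
Log2 fold change of siUPF1 over siLuc (± SE) of each of the 4 genes (red), of the gene that overlaps it (orange) and of its nearest tested neighbours (blue), in chromosome order without scale. FAM98C stands at 0.96 beside RASGRP4 at -1.43, and CDH23 at -0.09 beside C10orf105 at -1.51.

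The relatives of the 4 genes could be followed for RASGRP4 and DPEP1. Of 3 paralogs tested, 2 fell, 0 rose (0 at an unadjusted p under 0.05, and 0 by DESeq2 or limma-voom) and 1 did not pass, against 9.14% falling among all tested genes, and their median log2 fold change was -0.71. RASGRP2, the exchange factor for Rap1 in platelets, had 16.9 and 22.5 CPM in the siUPF1 libraries, against 32.9 and 31.8 CPM in the siLuc libraries. By edgeR it fell, with a log2 fold change of -0.71 (SE 0.12) and an adjusted p of 1.09e-07. RASGRP1, the exchange factor of T cells, had 15.7 and 16.5 CPM in the siUPF1 libraries, against 16.4 and 18.5 CPM in the siLuc libraries, and did not pass (-0.12, SE 0.15). DPEP3 had 2.90 and 4.45 CPM in the siUPF1 libraries, against 6.11 and 6.09 CPM in the siLuc libraries, and fell by 0.71 (SE 0.24, edgeR adjusted p = 0.0141). That call was lost without siLuc a (adjusted p = 0.11), without siLuc b (0.102), without siUPF1 replicate 1 (0.183, at -0.45) and with DESeq2 (0.244). RASGRP3 and DPEP2 were not found by symbol.

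Genes that build or bind mucin-type proteins such as sialophorin went both ways. Of 23 tested, 4 rose, 5 fell and 14 did not pass, against 16.8% rising and 9.14% falling among all genes tested, with a median log2 fold change of -0.07. CD44, a hyaluronan receptor that like sialophorin binds the ezrin family of membrane linkers, had 50.4 and 42.9 CPM in the siUPF1 libraries, against 25.5 and 29.3 CPM in the siLuc libraries, and rose by 0.76 (SE 0.10). LGALS3, which encodes the sugar-binding protein galectin-3, rose by 0.80 (SE 0.17), and ICAM1, an adhesion molecule reported to bind sialophorin, by 0.69 (SE 0.15). The fallers were small in size, from -0.19 for CD24 to -0.34 for PODXL2. The count in either direction was 9, but 3 without siLuc a, 5 without siLuc b and 6 with DESeq2.

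Of 19 tested genes of glutathione and leukotriene metabolism and of other membrane peptidases, the setting of DPEP1, 4 rose, 2 fell and 13 did not pass, with a median of -0.04. Of all genes tested, 16.8% rose and 9.14% fell, so these counts lie near the background. MGST2, which can make leukotriene C4, the precursor of the DPEP1 substrate, had 63 and 76 reads in siUPF1 replicates 1 and 2, against 106 and 125 in siLuc a and siLuc b, and fell by 0.90 (SE 0.19, edgeR adjusted p = 1.75e-05). CHAC1, which degrades glutathione, rose by 0.40 (SE 0.08) and the membrane peptidase gene MME by 0.33 (SE 0.07). Both directions together gave 6, but 3 without siLuc a and 3 with DESeq2.

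Of 26 tested genes of Ras exchange, Ras proteins and diacylglycerol signalling, the setting of RASGRP4, 4 rose, 3 fell and 19 did not pass, with a median of -0.02. These counts too lie near the 16.8% rising and 9.14% falling over all genes. RASGRF2, another Ras exchange factor, had 163 and 141 CPM in the siUPF1 libraries, against 78.3 and 90.6 CPM in the siLuc libraries, and rose by 0.84 (SE 0.07, edgeR adjusted p = 3.59e-29). PLCB3, a phospholipase that makes diacylglycerol, fell by 0.33 (SE 0.07), a call lost without siLuc a (adjusted p = 0.089, edgeR). DGKD, a kinase that removes diacylglycerol, rose by 0.24 (SE 0.07), a call lost under 5 of 11 alternatives, with the highest adjusted p, 0.234, without siUPF1 replicate 2 (edgeR). In either direction 7 passed, but 1 without siLuc a, 2 without siLuc b and 2 with DESeq2.

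Of 6 tested genes of stereocilia links, listed for the CDH23 locus, 1 rose and 2 fell, beside 16.8% rising and 9.14% falling over all genes, with a median of -0.16. MYO7A, a myosin of stereocilia, had 4.10 and 6.24 CPM in the siUPF1 libraries, against 11.4 and 13.8 CPM in the siLuc libraries, and fell by 1.28 (SE 0.19). USH1C, a scaffold protein, fell by 1.13 (SE 0.35), which was lost without siLuc a (adjusted p = 0.147), without siUPF1 replicate 1 (0.0777) and with DESeq2 (0.241). TMC1, a channel subunit of hair cells, had 5.60 and 4.90 CPM in the siUPF1 libraries, against 1.13 and 1.10 CPM in the siLuc libraries, and rose by 2.22 (SE 0.32, edgeR).

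Markers of the cells in which the 4 genes are usually studied were examined next. Leukocyte and blood markers were only partly measurable. Of 26 listed, 12 were found by symbol and tested, and PTPRC, the pan-leukocyte marker CD45, was not found. Of the 12, 1 rose, 4 fell and 7 did not pass, against 16.8% of all tested genes rising and 9.14% falling, with a median log2 fold change of -0.41. CORO1A, an actin regulator of leukocytes, had 17.8 and 21.1 CPM in the siUPF1 libraries, against 32.5 and 29.9 CPM in the siLuc libraries, and fell by 0.67 (SE 0.12). IKZF1, a lymphoid transcription factor, fell by 0.62 (SE 0.18), a call lost without siLuc b (adjusted p = 0.0712) and with DESeq2 (0.0939). LCP1, the leukocyte plastin, had 121 and 90.0 CPM in the siUPF1 libraries, against 43.0 and 57.2 CPM in the siLuc libraries, and rose by 1.06 (SE 0.08). The other fallers, CD52 at -1.02 (SE 0.30) and CD53 at -0.77 (SE 0.30), lay at or below 3.79 and 3.85 CPM in every library. The summed level of the markers was 155 to 179 CPM in the siUPF1 libraries and 123 to 137 CPM in the siLuc libraries, of which LCP1 gave 90.0 to 121 CPM in the siUPF1 libraries and 43.0 to 57.2 CPM in the siLuc libraries. The part of these markers in the drop of SPN and RASGRP4 was not tested. Without siLuc b, 2 of the 12 passed in either direction, as with DESeq2, against 5 in all.

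Of 4 mast cell markers tested of 12 listed, 0 passed with edgeR (0 at an unadjusted p under 0.05, and 0 by DESeq2 or limma-voom), against 25.9% of all genes. Their median log2 fold change was 0.24. KIT, the stem cell factor receptor, had 66.0 and 74.7 CPM in the siUPF1 libraries and 74.3 and 80.4 CPM in the siLuc libraries, and stem cells also express it. Without siUPF1 replicate 2, KIT (-0.23, adjusted p = 0.0277) and MITF (0.62, adjusted p = 0.0324) passed edgeR's test, and KIT also passed limma's with the read density trend removed (-0.21, adjusted p = 0.0306). Of 3 kidney proximal tubule markers tested of 14 listed, 2 rose and 0 fell (0 at an unadjusted p under 0.05, and 0 by DESeq2 or limma-voom), beside 16.8% rising and 9.14% falling over all genes. LRP2, the endocytic receptor megalin, had 18.0 and 20.6 CPM in the siUPF1 libraries, against 6.79 and 6.48 CPM in the siLuc libraries, and rose by 1.54 (SE 0.17), the direction opposite to that of DPEP1. Without siLuc a, 1 of the 3 passed in either direction, as with DESeq2.

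All 14 listed markers of undifferentiated stem cells were detected, summing to 2729 to 2952 CPM in the siUPF1 libraries and 3121 to 3327 CPM in the siLuc libraries. Of them 7 fell, 0 rose (0 at an unadjusted p under 0.05, and 0 by DESeq2 or limma-voom) and 7 did not pass, where 9.14% of all genes fell, with a median log2 fold change of -0.18, far smaller than the drops of the 4 genes. The methyltransferase gene DNMT3B fell by 0.30 (SE 0.07), a call lost without siLuc a (edgeR adjusted p = 0.0792), and stood at -0.12 with the read density trend removed (limma adjusted p = 0.0383). The fallers numbered 3 with DESeq2, and in either direction 2 passed with that trend removed, 0 passed without siLuc a, 2 without siUPF1 replicate 2, 12 without siUPF1 replicate 1 and 4 without siLuc b.

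**Figure D5:**
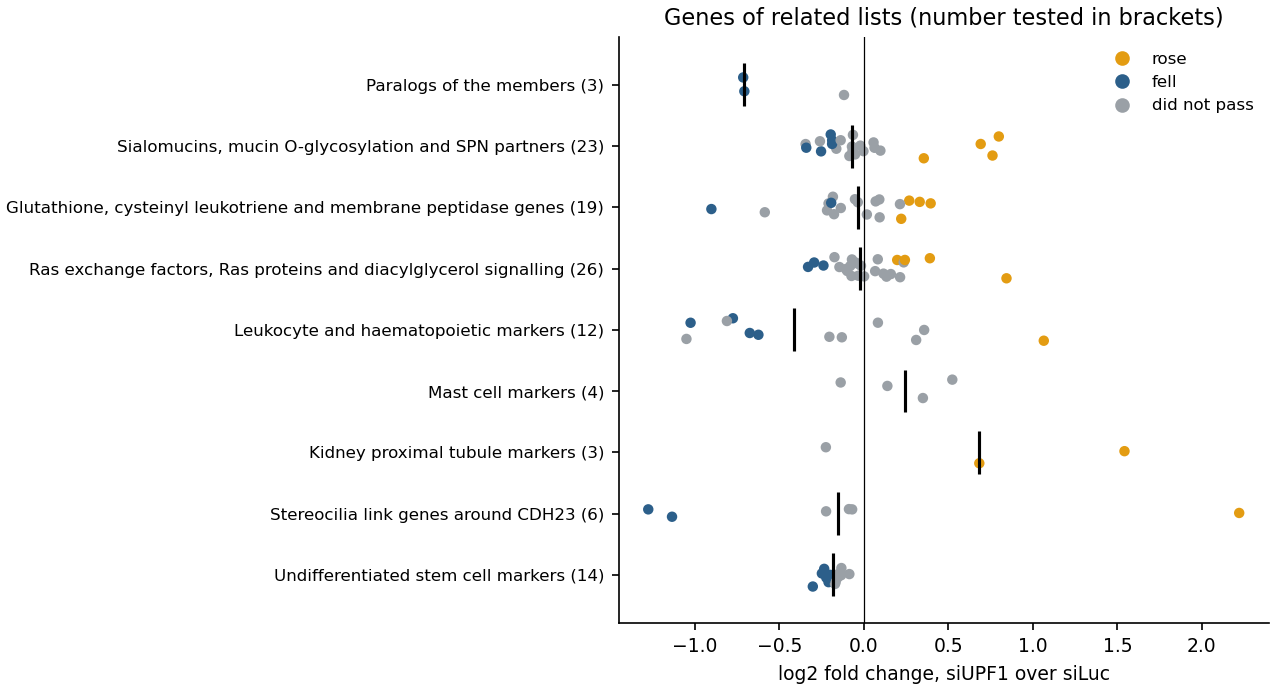
Log2 fold change of siUPF1 over siLuc for each tested gene of the 9 lists (points, coloured by whether the gene rose, fell or did not pass at an adjusted p of 0.05), with the list median as a black bar and vertical scatter added for legibility. The median is -0.71 for the 3 paralogs and -0.41 for the 12 leukocyte markers, lies between -0.18 and -0.02 for the mucin, glutathione, Ras, stereocilia and stem cell lists, and is above 0 for the kidney list and the mast cell list (0.24).

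The genes whose profile over the 4 libraries lay nearest to each of the 4 genes were ranked among 15489 genes that averaged at least 1 CPM, by Euclidean distance between log2 CPM values centred on their own mean. Nearest to SPN were ISLR (distance 0.28, log2 fold change -2.15), the chemerin receptor gene CMKLR1 (0.46, -2.44) and SMIM24 (0.51, -1.98), followed by DPEP1 (0.52) in place 4. ISLR had 11 and 9 reads in the siUPF1 libraries, against 37 and 43 in the siLuc libraries, so its own counts are few. Nearest to DPEP1 were LRRC55 (0.16, -1.73), which encodes an accessory subunit of potassium channels, CD79B (0.16, -1.75), a B cell receptor component, and SMIM24 (0.17, -1.98). LRRC55 had 68 and 98 reads in the siUPF1 libraries, against 221 and 269 in the siLuc libraries. Nearest to RASGRP4 were GOLGA6C (0.08, -1.37), of a family of near-identical copies whose counts are uncertain, LCN10 (0.08, -1.48) and HRC (0.12, -1.43). For C10orf105 they were ATP8B3 (0.18, -1.54), LOC101926975 (0.18, -1.54) and RASGRP4 itself (0.20). Reads were few for LCN10 too, with 8 and 14 in the siUPF1 libraries, against 24 and 31 in the siLuc libraries. SMIM24, CD79B and ATP8B3 had at most 63 reads in any library. Ranked from SPN, C10orf105 was in place 25 and RASGRP4 in place 34, while SPN was in place 326 from C10orf105 and 546 from RASGRP4. From DPEP1, C10orf105 was in place 11, RASGRP4 in place 19 and SPN in place 25, and C10orf105 was in place 8 from RASGRP4. The ranking rests on 4 libraries and on the contrast that chose the genes, and is a description.

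The siRNA sequences being absent from the sources, no match between them and the 4 transcripts was sought, and an action of the siRNA on them apart from UPF1 was not tested. Whether the drops followed from other expression changes was not tested either.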

How the data were processed

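Total RNA of 4 H9 libraries was sequenced on Illumina libraries, per the labels' protocols. The authors' table holds whole read counts per gene, not normalized, beside the authors' RPKM values, and STAR, DESeq2 and hg19 are named in the submitters' processing notes, without versions or roles. Column names tie the siUPF1 columns to libraries and the control columns only to their group. The 2 control RPKM columns were not used, and the siUPF1 RPKM values served to derive transcript lengths.

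Depth was 8887239 to 11200973 counts per library, and intervals cover counting error only. edgeR 4.0.16 in R 4.3.3 (quasi-likelihood, two-sided, TMM, filterByExpr, Benjamini-Hochberg over 15557 genes, threshold 0.05) was the main test, checked on simulated data. The biological coefficient of variation was 4.47%. SE is the log2 fold change over the square root of F. Alternatives were DESeq2 1.42.0, limma-voom (limma 3.58.1), RLE factors, library size alone, no filter, a 5 CPM filter in 2 libraries, an adjusted p of 0.1, a prior count of 2, raw summed counts, a loess trend on reads per base removed (span 0.3), and each library left out. Where a group keeps 1 library, it is assumed to vary like the other group.

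The 4 genes and all lists were chosen with earlier results of these data known. The rule for naming others gave UPF1, the 3 genes of smallest p per list, the nearest neighbours and the 3 nearest profiles. Some that it gave are not described above. POU5F1 (-0.25, SE 0.07) and L1TD1 (-0.23, SE 0.07) fell, calls each lost under 3 of 11 alternatives. SLC18A2 of the mast cell list (0.14, SE 0.11) and SLC4A4 of the kidney list (-0.22, SE 0.19) did not pass. Genes named outside this rule (CD24, PODXL2, CD52, CD53, BOLA2, IL2RB, SCN1A) were chosen after their values were seen. RASGRP3, DPEP2, PTPRC and all other list genes left untested were not found by symbol, so no values of theirs were seen. A single gene of the kidney list is not reported here. Transcript features came from GENCODE 29 and promoters from RefSeq, both on GRCh38. The files are on hg19, so no gene coordinates are given, and the promoter intervals printed are on GRCh38.p14.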

Additional observations from a re-analysis of the deposited data

How the results depend on the processing

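The log2 fold changes of the 4 genes stayed negative under every alternative run, and 1 moved by more than the replicate SD, that of RASGRP4 without siUPF1 replicate 2 (-1.74). Every alternative reuses the counts that chose these genes for their drop, so the unchanged sign is no test of them. Leaving out 1 library gave -2.36 to -2.20 for SPN, -1.91 to -1.75 for DPEP1, -1.74 to -1.21 for RASGRP4 and -1.66 to -1.34 for C10orf105. Over all genes, 2613 rose and 1422 fell, against 1274 and 465 with DESeq2, 2184 and 2129 with the read density trend removed, and 1444 to 2764 and 552 to 1522 with 1 library left out. With DESeq2, 1 paralog, 3 glutathione and leukotriene genes, 2 Ras genes, 2 leukocyte markers, 1 kidney marker and 3 stem cell markers passed. With the 5 CPM filter, which tests fewer genes, 3 leukocyte markers and 1 stereocilia gene passed. With the read density trend removed, 1 mast cell marker and 2 stem cell markers passed. Leaving out 1 library gave 1 to 2 paralogs, 3 to 10 mucin genes, 3 to 8 glutathione and leukotriene genes, 1 to 7 Ras genes, 2 to 5 leukocyte, 0 to 2 mast cell, 1 to 2 kidney and 0 to 12 stem cell markers, 2 to 4 stereocilia genes and 4 to 10 neighbours. Apart from the 5 CPM filter, the cause was not tested. No paired analysis was possible because the control columns carry no replicate number of their own. Depth limits the 4 genes to 26 to 54 reads per siUPF1 library.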

Other observations

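IL2RB, which encodes the shared beta chain of the interleukin-2 and interleukin-15 receptors, came next after HRC among genes that averaged at least 5 CPM, in place 12, with a log2 fold change of -1.43. It was named after its value was seen, so no p-value is given for it.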
